A study of Mus musculus with 12 samples.

Results

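The interleukin-12 family was described through its 5 subunit genes, Il12a, Il12b, Il23a, Il27 and Ebi3, taken by name from a table of 43346 mouse genes. All 5 were in the table, and all 5 were among the 16281 genes with enough counts to be tested. Each was measured as RNA in peritoneal macrophages of C57BL/6 mice, either wild type (WT) or lacking CD36 (CD36 KO), a scavenger receptor that binds oxidised low-density lipoprotein (oxLDL). The cells were cultured in RPMI1640 with serum and were given 20 µg/ml oxLDL or medium alone (control) for 8 h, which gave 4 groups of 3 libraries, 12 in all. Neither the age and sex of the mice nor how many mice gave the cells is in the labels, which do not say whether replicates were separate animals or cultures, so p-values measure the spread between these libraries, which may be technical. Genotype cannot be told apart from any other difference between the 2 sources of cells.

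Cytokines of this family are heterodimers, each built of an alpha chain that resembles interleukin-6 and a beta chain that resembles a soluble cytokine receptor. Il12b encodes p40, the beta chain shared by IL-12, where it pairs with the Il12a product p35, and by IL-23, where it pairs with the Il23a product p19. Ebi3 encodes the other beta chain, which pairs with the Il27 product p28 in IL-27 and with p35 in IL-35. Macrophages and dendritic cells are the main sources of IL-12, IL-23 and IL-27. IL-12 drives interferon-gamma production by T and natural killer cells, IL-23 sustains cells that make interleukin-17 and interleukin-22, and IL-27 has both stimulating and restraining effects on T cells.

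The library totals ran from 35257762 to 65135955 counts. Cd36 checked the labels: WT macrophages had 5362 ± 106 CPM (counts scaled to a common library size with the trimmed mean of M-values, TMM; mean ± SD, n = 3) in control medium and 3100 ± 1048 under oxLDL, and the knockout had 481 ± 28.3 and 199 ± 7.58, so some Cd36 counts remained in the knockout. All 6 general macrophage markers were tested, and they summed to between 15160 and 33633 CPM in every library. WT oxLDL replicate 1 stood apart: its log2 CPM correlated with the other 2 libraries of its group at r = 0.952 and 0.953, against 0.988 to 0.995 for all other pairs of replicates. The median of tested genes of 1000 to 2000 bases, a range that holds all 5 family genes, was 0.59 higher on the log2 scale in that library than in the other 2 of its group, and the median of genes over 4000 bases was 0.57 lower. The members' responses and genotype differences under oxLDL, and the list genes named for such a difference, are therefore given with and without that library.

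The genes lie on 5 chromosomes, here in mm10 coordinates from GENCODE M21. Il12a (ENSMUSG00000027776) spans chr3:68690644-68698547 on the plus strand and Il12b (ENSMUSG00000004296) spans chr11:44400063-44414033 on the plus strand. Il23a (ENSMUSG00000025383) spans chr10:128296139-128298752 on the minus strand, Il27 (ENSMUSG00000044701) spans chr7:126589010-126594941 on the minus strand, and Ebi3 (ENSMUSG00000003206) spans chr17:55952640-55957022 on the plus strand. Counts were summed over whole genes, so they say nothing of single exons or isoforms.

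The 250 bases upstream of the start are shown for the 3 members matched by symbol in the RefSeq promoters used here (GRCm38.p6, the assembly behind mm10). These 3 genes rose under oxLDL in both genotypes, as did Il27, for which no promoter was matched. The windows are chr3:68690394-68690643 for Il12a, chr11:44399813-44400062 for Il12b and chr17:55952373-55952622 for Ebi3, all on the plus strand and written 5′ to 3′. Capitals mark letters that matched a motif searched on both strands.
Il12a: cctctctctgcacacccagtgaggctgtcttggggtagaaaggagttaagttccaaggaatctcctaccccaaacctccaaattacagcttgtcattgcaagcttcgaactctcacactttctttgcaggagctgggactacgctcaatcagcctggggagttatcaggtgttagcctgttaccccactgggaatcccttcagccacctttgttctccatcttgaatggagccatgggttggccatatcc
Il12b: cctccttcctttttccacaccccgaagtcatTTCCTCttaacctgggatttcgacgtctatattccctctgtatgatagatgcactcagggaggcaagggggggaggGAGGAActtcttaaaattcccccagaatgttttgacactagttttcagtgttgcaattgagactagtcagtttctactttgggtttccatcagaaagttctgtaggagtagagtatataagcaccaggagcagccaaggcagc
Ebi3: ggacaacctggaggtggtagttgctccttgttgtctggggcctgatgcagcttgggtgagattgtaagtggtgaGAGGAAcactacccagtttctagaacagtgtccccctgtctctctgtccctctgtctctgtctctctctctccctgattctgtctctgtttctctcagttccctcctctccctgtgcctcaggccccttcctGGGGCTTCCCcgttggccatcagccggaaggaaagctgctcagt
The motifs were the kappa-B consensus bound by NF-kappa-B, an IRF core (AANNGAAA), an Ets-IRF composite (GGAANNGAA), a PU.1 core (GAGGAA), a C/EBP motif (TTGCNNAA) and an AP-1 motif (TGANTCA). Ebi3 held a kappa-B match that begins 44 bases upstream of the start and reads as a match on both strands, a motif present in 7.25% of 32851 mouse promoter windows of that length. PU.1 cores, present in 23.3% of windows, began 176 bases upstream in Ebi3 and 219 and 143 bases upstream in Il12b. The Il12a window, and a window at a further Il12a start, held none of the 6 motifs, which says only that these letters are not there. No match of the IRF core (21.3% of windows), the Ets-IRF composite (6.99%), the C/EBP motif (9.56%) or the AP-1 motif (6.75%) was found in the windows of these genes. The Ets-IRF and IRF motifs overlap each other in their letters, as do the Ets-IRF composite and the PU.1 core.

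OxLDL raised the RNA of both IL-12 chains from a few counts per library to between 6.08 and 34.2 CPM per library. In WT macrophages 4 of the 5 genes rose (edgeR quasi-likelihood test, Benjamini-Hochberg adjusted p under 0.05), where 18.1% of all tested genes rose and 18.6% fell. In CD36 KO macrophages 5 of 5 rose, where 11.6% of all tested genes rose and 15.7% fell. Il12a, Il12b and Il23a passed the filter on low counts through oxLDL libraries only, Il23a through the CD36 KO oxLDL libraries only, so these shares are descriptions. In such bulk RNA, more cells of a type and more RNA per cell cannot be told apart.

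**Figure D1:**
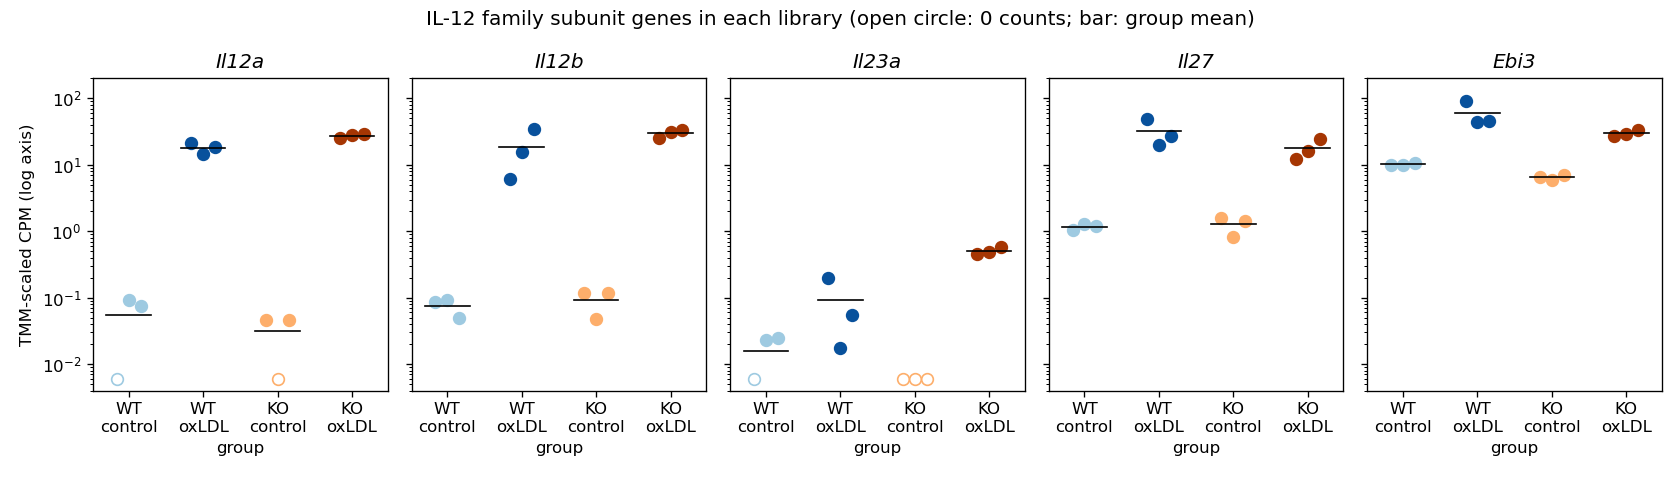
TMM-scaled CPM on a log axis for each of the 5 genes in the 12 libraries, grouped by genotype and medium; filled points are libraries, open points are libraries with 0 counts drawn at the foot of the axis, and bars are group means. Il12a and Il12b go from under 0.12 CPM in every control library to above 6 CPM in every oxLDL library, and Il23a stays under 0.6 CPM throughout.

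Il12a, which encodes the chain specific to IL-12 and IL-35, was at 0, 0.0926 and 0.0739 CPM in the WT control libraries and at 21.1, 14.4 and 18.8 CPM in the WT oxLDL libraries. In CD36 KO it went from 0.0470, 0 and 0.0465 CPM to 25.1, 28.2 and 28.8 CPM. Every oxLDL library was above every control library, and every CD36 KO oxLDL library was above every WT oxLDL library. The log2 fold change was 8.32 ± 0.45 (SE) in WT (edgeR adjusted p = 1e-07) and 9.64 ± 0.48 in CD36 KO (edgeR adjusted p = 9.4e-08), and the WT value was 8.21 without WT oxLDL replicate 1. The control groups held 7 and 4 Il12a counts in all, so the size of these folds is set by few reads: the ratio of summed counts, scaled for library size, was 324 in WT (95% exact counting interval 157 to 807) and 864 in CD36 KO (337 to 3173), intervals that cover counting error only.

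Il12b, which encodes the shared p40 chain, had 0.0849, 0.0926 and 0.0493 CPM in WT control and 6.08, 15.7 and 34.2 CPM in WT oxLDL. In CD36 KO it had 0.117, 0.0480 and 0.116 CPM in control and 25.3, 31.2 and 33.2 CPM under oxLDL. The WT oxLDL libraries were the most spread for this gene, with replicate 1 lowest, and they overlapped the CD36 KO oxLDL libraries through replicate 3. The log2 fold change was 7.88 ± 0.70 in WT (edgeR adjusted p = 5.1e-06) and 8.26 ± 0.69 in CD36 KO (edgeR adjusted p = 4.6e-06). The WT value was 8.30 without WT oxLDL replicate 1.

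Il23a, which encodes the chain specific to IL-23, was the least abundant member, and its values are given as counts. The WT libraries held 0, 1 and 1 counts in control medium and 6, 1 and 2 under oxLDL. The CD36 KO libraries held 0, 0 and 0 in control medium and 23, 18 and 23 under oxLDL. Every CD36 KO oxLDL library was above all others, whereas the WT oxLDL and WT control libraries overlapped. In CD36 KO, 64 counts against 0 made the level at least 21.2-fold higher under oxLDL, against a floor of 3 counts over the control group. The CD36 KO control level was at most the 0.0236 CPM that a count of 0 allows. The fitted log2 fold change of 7.42 ± 1.06 (edgeR adjusted p = 0.00064) depends on the prior count and is no bound. In WT, 9 counts against 2 gave a ratio of 4.82 (95% exact counting interval 0.997 to 45.8) and a fitted log2 fold change of 2.13 ± 1.05, which did not pass (edgeR adjusted p = 0.14). That WT value was 2.78 (edgeR adjusted p = 0.040) without WT oxLDL replicate 2 and 0.98 (edgeR adjusted p = 0.51) without replicate 1.

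Il27, which encodes the p28 chain of IL-27, was present in control medium at 1.04, 1.27 and 1.21 CPM in WT and 1.60, 0.815 and 1.44 CPM in CD36 KO. Under oxLDL it reached 49.2, 19.6 and 26.9 CPM in WT and 12.3, 16.4 and 24.5 CPM in CD36 KO. Every oxLDL library was above every control library, and the genotypes overlapped in both media. The log2 fold change was 4.76 ± 0.42 in WT (edgeR adjusted p = 4.2e-06) and 3.78 ± 0.40 in CD36 KO (edgeR adjusted p = 2.9e-05). Without WT oxLDL replicate 1, the highest library for this gene, the WT value was 4.32.

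Ebi3, which encodes the beta chain of IL-27 and IL-35, was the most abundant member in control medium, at 10.1, 9.91 and 10.7 CPM in WT and 6.60, 5.85 and 6.93 CPM in CD36 KO. Under oxLDL it was at 92.7, 43.4 and 46.0 CPM in WT and at 27.3, 29.0 and 33.5 CPM in CD36 KO. In each medium every CD36 KO library lay below every WT library. The log2 fold change was 2.57 ± 0.26 in WT (edgeR adjusted p = 1.5e-05) and 2.21 ± 0.26 in CD36 KO (edgeR adjusted p = 6.4e-05), and the WT value was 2.14 without WT oxLDL replicate 1.

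**Figure D2:**
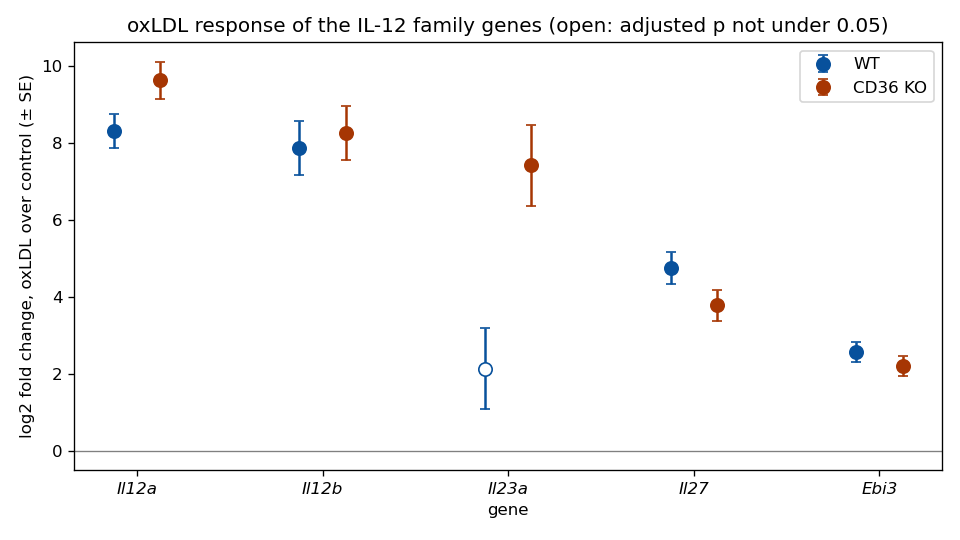
Log2 fold change of oxLDL over control (points) with its standard error (bars) for each family gene in WT and CD36 KO macrophages; open points did not pass an adjusted p of 0.05. The IL-12 chains Il12a and Il12b changed by 7.88 to 9.64 on the log2 scale, Il27 and Ebi3 by less, and Il23a passed the test in CD36 KO but not in WT.

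The folds that the authors' deposited tables give for the same comparisons were close to these. For oxLDL in WT the authors' deposited table lists log2 fold changes of 8.31 for Il12a, 7.88 for Il12b, 4.76 for Il27 and 2.57 for Ebi3. For oxLDL in CD36 KO the authors' deposited table lists 9.68, 8.31, 3.83 and 2.26 in the same order. Il23a is in none of the 4 pairwise tables.

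Per kilobase of gene length Ebi3 had the highest mean and Il27 the next in all 4 groups. In RPKM (counts scaled by gene length and library total, as the authors deposited them), WT control macrophages had 9.12 ± 0.26 of Ebi3 and 1.2 ± 0.11 of Il27 (SD, n = 3), and less than 0.06 of each other member in every library. Under oxLDL the WT order was Ebi3 at 40.9 ± 14.6, Il27 at 24.6 ± 9.5, Il12a at 8.53 ± 1.08, Il12b at 7.89 ± 6.22 and Il23a at 0.0511 ± 0.0505. The Il12a and Il12b values overlapped between libraries, so their order is within the spread. The means of WT oxLDL replicates 2 and 3 alone were 32.5 for Ebi3, 19.3 for Il27, 8.28 for Il12a, 10.7 for Il12b and 0.0227 for Il23a. In CD36 KO oxLDL macrophages Ebi3 was at 26.1 ± 1.2, Il27 at 17.5 ± 5.1, Il12a at 16.5 ± 0.5, Il12b at 15.5 ± 1.3 and Il23a at 0.379 ± 0.024. There Il27, Il12a and Il12b overlapped one another, and Ebi3 was above and Il23a below all of them.

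The RNA of the 2 chains of each cytokine was compared within each library as a log2 ratio of RPKM, with 0.01 RPKM added to each. For IL-12, Il12b over Il12a was -2.0, -0.08 and 0.65 in the WT oxLDL libraries and -0.20, -0.06 and -0.0045 in the CD36 KO oxLDL libraries. The CD36 KO libraries thus had near equal RNA of both chains, and the WT libraries surrounded that value, with replicate 1 far below. For IL-23, Il12b exceeded Il23a by a geometric mean of 127-fold in WT oxLDL and 39.8-fold in CD36 KO oxLDL, so the p19 chain was the scarcer RNA by far in both. The WT libraries were at 4.26, 8.34 and 8.37 on the log2 scale, with replicate 1 below the CD36 KO range of 5.23 to 5.43 and replicates 2 and 3 above it. The WT values rest on 1 to 6 Il23a counts per library.

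For IL-27, the excess of Ebi3 over Il27 narrowed under oxLDL. In WT it went from 7.58-fold in control medium to 1.68-fold, and in CD36 KO from 4.53-fold to 1.53-fold. In both genotypes every oxLDL library had a lower ratio than every control library. For IL-35, Ebi3 over Il12a was 2.67, 2.13 and 1.83 on the log2 scale in the WT oxLDL libraries and 0.66, 0.58 and 0.76 in the CD36 KO oxLDL libraries. The ranges did not overlap, with a difference of -1.55 between the means of 0.67 ± 0.09 and 2.21 ± 0.43 (SD, n = 3; 2-sided exact permutation test, p = 0.1, the smallest that 3 against 3 allows). Of the 4 ratios compared between genotypes under oxLDL this was the lowest exact p, and it came to 0.4 after Benjamini-Hochberg adjustment over the 4. The exact p was 0.8 for IL-12, 0.4 for IL-23 and 0.7 for IL-27, with differences of 0.39, -1.67 and -0.13. With WT oxLDL replicate 1 left out the differences were -0.37 for IL-12, which changed sign, -3.04 for IL-23, -0.15 for IL-27 and -1.31 for IL-35. The exact permutation p was then 0.2 for IL-23 and also 0.2 for IL-35, the smallest that 3 against 2 allows, and it was larger for IL-12 and IL-27.

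**Figure D3:**
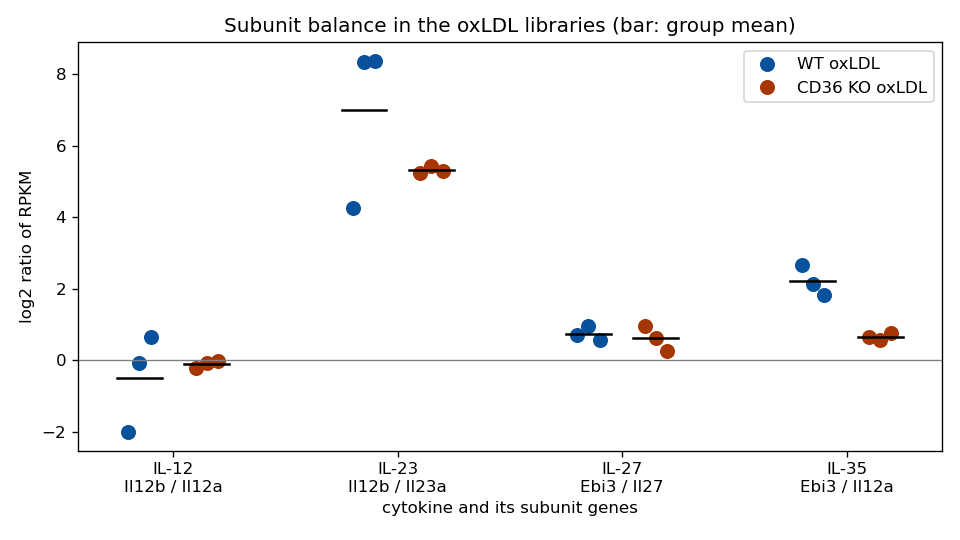
Log2 ratio of the RPKM of the 2 subunit genes of each cytokine in the 6 oxLDL libraries; points are libraries and bars are group means, with 0 meaning equal RNA per length. The WT and CD36 KO ranges overlap for IL-12, IL-23 and IL-27. For IL-23 WT oxLDL replicate 1 lies below the CD36 KO libraries and the other WT libraries lie above them. The ranges lie apart for IL-35, where Ebi3 over Il12a is at 1.83 or above in WT and at 0.76 or below in CD36 KO.

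Between the genotypes in control medium, 0 of the 5 members were called by edgeR, where 11.2% of tested genes were called in either direction. DESeq2 and limma voom also called 0, and 1 member, Ebi3, had an unadjusted p under 0.05. Ebi3 was at a log2 difference of -0.66 ± 0.25 in CD36 KO (edgeR adjusted p = 0.13). The call changed with the libraries that set the spread: without WT oxLDL replicate 1, which is in neither group, the value was -0.67 with edgeR adjusted p = 0.00040, and with only the 2 control groups in the fit it was -0.65 with edgeR adjusted p = 0.00051. The authors' deposited table of this comparison lists Ebi3 at -0.63 with a false discovery rate of 5.5e-06. The log2 differences of Il12a (-0.72 ± 0.91), Il12b (0.29 ± 1.12) and Il23a (-2.63 ± 1.77) rest on 12 counts or fewer per group, and that of Il27 was 0.13 ± 0.41.

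Under oxLDL, 2 of the 5 members differed between genotypes and in opposite directions. Il23a was higher in CD36 KO, where 11.7% of tested genes were higher, and Ebi3 was lower, where 9.86% were lower. Il23a passed the filter on low counts through the CD36 KO oxLDL libraries only, the group where it was higher, so its call is a description. The summed Il23a counts of 64 and 9 gave a ratio of 6.80 (95% exact counting interval 3.37 to 15.5), and the fitted log2 difference was 2.66 ± 0.60 (edgeR adjusted p = 0.012). Without WT oxLDL replicate 1, which held 6 of those 9 counts, the counts of 64 and 3 gave a ratio of 15.4 (5.05 to 76.8) and a fitted difference of 3.81 (edgeR adjusted p = 0.00059). The fitted Ebi3 difference was -1.02 ± 0.25 (edgeR adjusted p = 0.013) and it was -0.60 (edgeR adjusted p = 0.00056) without that library.

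Both calls were lost in a fit of the 2 oxLDL groups alone, where Il23a had edgeR adjusted p = 0.055 and Ebi3 had edgeR adjusted p = 0.12. The Ebi3 call was also lost without CD36 KO oxLDL replicate 1 (edgeR adjusted p = 0.062) or replicate 2 (edgeR adjusted p = 0.052). The authors' deposited table lists Ebi3 at -0.94 with a false discovery rate of 0.061.

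Il12a, Il12b and Il27 did not pass under oxLDL in this fit. Il12a had a difference of 0.60 ± 0.27 (edgeR adjusted p = 0.13), and 0.71 (edgeR adjusted p = 0.0079) without WT oxLDL replicate 1. Il12a was also called by DESeq2, at 0.56 with DESeq2 adjusted p = 0.029, and with the length trend removed, at 0.68 with edgeR adjusted p = 0.040. Between genotypes under oxLDL, DESeq2 called 3 of the 5 members and limma voom 2. Il12b had 0.68 ± 0.44 (edgeR adjusted p = 0.29), and 1.45 (edgeR adjusted p = 0.015) without WT oxLDL replicate 3, its highest WT library. With replicate 1 left out in its place the Il12b difference was 0.25 (edgeR adjusted p = 0.44). Il27 had -0.85 ± 0.35 (edgeR adjusted p = 0.10), and -1.11 (edgeR adjusted p = 0.036) without WT oxLDL replicate 2. With replicate 1 left out in its place the Il27 difference was -0.41 (edgeR adjusted p = 0.23). For each of these 3 genes, leaving out 1 WT oxLDL library thus changed the call.

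**Figure D4:**
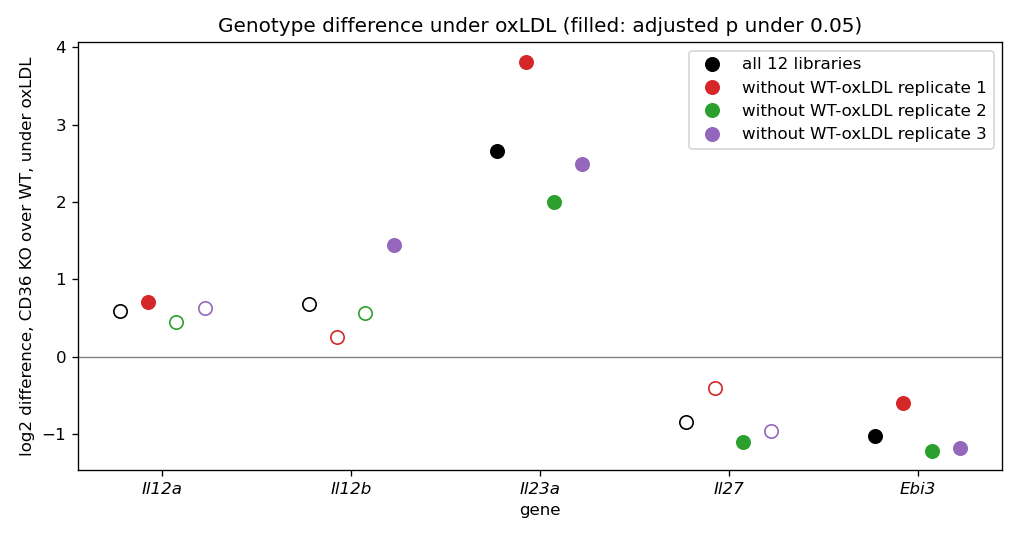
Log2 difference of CD36 KO over WT under oxLDL for each family gene, with all 12 libraries and with each WT oxLDL library left out; filled points passed an edgeR adjusted p of 0.05. Il12a, Il12b and Il23a are above 0 and Il27 and Ebi3 below 0 in all 4 fits, and Il23a and Ebi3 are filled in all 4.

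Whether oxLDL acted differently in the 2 genotypes was tested by the interaction term. It called 0 of the 5 members with edgeR, where 0.669% of tested genes were called, and 0 with DESeq2 and with limma voom, although DESeq2 gave no adjusted p for Il23a. At an unadjusted p under 0.05 there was 1 member, Il23a, with an interaction of 5.29 ± 2.15 (edgeR adjusted p = 0.42), which was 6.47 (edgeR adjusted p = 0.061) without WT oxLDL replicate 1. The other interactions were 1.32 ± 0.97 for Il12a, 0.38 ± 1.28 for Il12b, -0.98 ± 0.53 for Il27 and -0.36 ± 0.35 for Ebi3. Without WT oxLDL replicate 1 those of Il12b and Ebi3 changed sign, to -0.04 and 0.07, and those of Il12a and Il27 were 1.43 and -0.54.

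Of the 5 receptor chains of the family, 2 rose and 1 fell under oxLDL in WT, and 3 rose in CD36 KO. Of all tested genes 18.1% rose and 18.6% fell in WT, and 11.6% rose and 15.7% fell in CD36 KO. Between genotypes under oxLDL 11.7% were higher and 9.86% lower in CD36 KO. The median log2 change was 0.15 in WT and 0.51 in CD36 KO, against -0.01 and -0.08 over all tested genes. Il23r, which encodes the specific chain of the IL-23 receptor, had 0 counts in WT control and 220 in WT oxLDL, at least 78.5-fold higher against a floor of 3 counts over the group. In CD36 KO it went from 1 count to 102, and under oxLDL it was lower in CD36 KO than in WT by a log2 difference of -1.16 ± 0.31 (edgeR adjusted p = 0.027), and by -1.36 (edgeR adjusted p = 0.0030) without WT oxLDL replicate 1. Il23r passed the filter on low counts through oxLDL libraries only.

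Il12rb1, the chain shared by the IL-12 and IL-23 receptors, rose in WT from 0.740 ± 0.025 to 2.69 ± 0.67 CPM (SD, n = 3), while in CD36 KO it was at 1.35 ± 0.75 in control and 0.974 ± 0.360 CPM under oxLDL. Under oxLDL it was lower in CD36 KO (log2 difference -1.46 ± 0.38, edgeR adjusted p = 0.019), and Il12rb2, the second IL-12 receptor chain, was higher (0.64 ± 0.16, edgeR adjusted p = 0.015). Il27ra, the specific chain of the IL-27 receptor, rose in CD36 KO by 0.51 ± 0.15 (edgeR adjusted p = 0.024), and Il6st, which encodes the shared chain gp130, fell in WT by a log2 change of -1.42 ± 0.29 (edgeR adjusted p = 0.0027). The interaction was called for 0 of the 5 receptor genes with edgeR and limma voom and for 2 with DESeq2. At an unadjusted edgeR p under 0.05 there were 2. Without WT oxLDL replicate 1 edgeR called it for Il12rb1, at -2.13 (edgeR adjusted p = 0.031), and Il12rb2, at 0.65 (edgeR adjusted p = 0.049). In that fit the interaction was called higher for 259 and lower for 899 of 16636 tested genes. Leaving out WT oxLDL replicate 1 gave genotype differences under oxLDL of -1.27 for Il12rb1 (edgeR adjusted p = 0.019) and 0.49 for Il12rb2 (edgeR adjusted p = 0.012). The numbers rising and falling under oxLDL were then the same in WT, and 3 rose and 1 fell in CD36 KO. Of all 16636 genes tested in that fit 4043 rose and 4054 fell in WT, and 3494 rose and 4821 fell in CD36 KO. The calls depended on the fit: over 20 alternatives the receptor genes that differed under oxLDL numbered from 0 to 4, with 0 in a fit of the 2 oxLDL groups alone and without CD36 KO oxLDL replicate 2, and 1, Il12rb2, without CD36 KO oxLDL replicate 1. The response in CD36 KO was called for 1 to 4 of them, with Il23r alone called in 5 alternatives.

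Of 5 JAK and STAT genes that these receptors use, 3 rose in WT and 2 in CD36 KO, with medians of 0.66 and 0.37. Of all tested genes 18.1% rose in WT and 11.6% in CD36 KO. Jak2 rose by 2.63 ± 0.28 and 2.34 ± 0.27, and Stat3, used by IL-23 and IL-27, by 1.10 ± 0.16 and 0.48 ± 0.16. The Stat3 call in CD36 KO was near the threshold (edgeR adjusted p = 0.044), and in 10 of 20 alternatives Jak2 was the 1 gene of the list called there. Tyk2 rose in WT by 0.66 ± 0.12 (edgeR adjusted p = 0.0014) and was the 1 gene of the list that differed under oxLDL, by -0.58 ± 0.12 in CD36 KO (edgeR adjusted p = 0.0067). Stat4, the main STAT of IL-12 signalling in T cells, was at 1.60 ± 0.28 CPM in WT oxLDL and 1.67 ± 0.37 in CD36 KO oxLDL and did not pass in either genotype. Without WT oxLDL replicate 1, 4 rose in WT and 3 in CD36 KO, and 4 of the 5 were lower in CD36 KO under oxLDL, with Tyk2 at -0.52 (edgeR adjusted p = 0.0012). Over all 16636 genes tested in that fit, 4043 rose in WT and 3494 in CD36 KO. Under oxLDL 3519 were lower in CD36 KO and 2686 higher. A fit of the 2 oxLDL groups alone called 0 of the 5 JAK and STAT genes.

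Of 10 transcription factors known to activate family genes, 6 rose and 1 fell in WT and 4 rose and 1 fell in CD36 KO, with medians of 1.27 and 0.86. Of all tested genes 18.1% rose and 18.6% fell in WT, and 11.6% rose and 15.7% fell in CD36 KO. The NF-kappa-B subunit genes Nfkb1 (1.87 ± 0.17 in WT and 2.02 ± 0.17 in CD36 KO) and Rela (1.70 ± 0.20 and 1.18 ± 0.20) rose in both genotypes. Irf1, known to act on Il12a and Il27, rose by 3.01 ± 0.25 and 2.16 ± 0.24, and Cebpb by 2.22 ± 0.17 and 1.74 ± 0.17. Rel, which encodes c-Rel, needed for Il12b in mouse macrophages, was at 4.06, 24.5 and 25.7 CPM in WT oxLDL and did not pass in either genotype. Its lowest WT oxLDL library was replicate 1. Without that library Rel rose by 0.997 in WT (edgeR adjusted p = 0.0022) and by 1.10 in CD36 KO (edgeR adjusted p = 0.00066). The AP-1 gene Jun fell in both. Under oxLDL, Spi1, which encodes PU.1, was lower in CD36 KO (-1.20 ± 0.29, edgeR adjusted p = 0.013), as was Irf5 (-0.79 ± 0.18, edgeR adjusted p = 0.010). These were the 2 of the 10 called between genotypes, where 9.86% of all tested genes were lower. When WT oxLDL replicate 1 was left out, 7 of the 10 rose and 1 fell in WT, and 6 rose and 1 fell in CD36 KO. Over all 16636 genes tested in that fit, 4043 rose and 4054 fell in WT, and 3494 rose and 4821 fell in CD36 KO. The genotype differences were then -0.66 for Spi1 (edgeR adjusted p = 0.00030) and -0.54 for Irf5 (edgeR adjusted p = 0.0012). None of the 10 was called between genotypes under oxLDL in a fit of the 2 oxLDL groups alone or without CD36 KO oxLDL replicate 1.

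Of 5 genes known to restrain the family, 2 rose in WT, and 2 rose and 1 fell in CD36 KO. Of all tested genes 18.1% rose and 18.6% fell in WT, and 11.6% rose and 15.7% fell in CD36 KO. Under oxLDL 4 of the 5 were lower in CD36 KO than in WT, where 9.86% of tested genes were lower. The median of the 5 was -0.97, against -0.03 over all tested genes. Il10, a cytokine that restrains Il12b, was at 3.36, 2.28 and 1.99 CPM in WT oxLDL and at 1.0, 1.30 and 1.32 CPM in CD36 KO oxLDL (log2 difference -1.07 ± 0.24, edgeR adjusted p = 0.0084). Maf, a repressor of IL-12 genes in macrophages, was at 65.1, 125 and 127 CPM in WT oxLDL and at 41.3, 43.4 and 40.0 CPM in CD36 KO oxLDL (-1.35 ± 0.22, edgeR adjusted p = 0.0017). The groups did not overlap for either gene. Bcl6 (-0.97 ± 0.20, edgeR adjusted p = 0.0059) and Atf3 (-0.64 ± 0.18, edgeR adjusted p = 0.024) were also lower. The number lower was also 4 of 5 without WT oxLDL replicate 1, and 3 then rose in WT, with Maf at -1.62 (edgeR adjusted p = 2.4e-07) and Il10 at -0.85 (edgeR adjusted p = 0.0062). Bcl6 was then at -1.21 (edgeR adjusted p = 5.8e-06) and Atf3 at -0.42 (edgeR adjusted p = 0.010). Over all 16636 genes tested in that fit, 3519 were lower in CD36 KO under oxLDL and 4043 rose in WT. The number lower ranged from 1 to 4 over 20 alternatives. It was 1, Maf, in a fit of the 2 oxLDL groups alone, and 3 with upper-quartile scaling and without CD36 KO oxLDL replicate 1 or 2. In control medium 0 of the 5 were called between genotypes, where 11.2% of tested genes were called. The median of the 5 there was -0.42, against 0.01 over all tested genes. Without WT oxLDL replicate 1, Bcl6 (-0.61, edgeR adjusted p = 0.00054) and Atf3 (-0.42, edgeR adjusted p = 0.0071) were called lower in control medium. So were 2011 of all 16636 genes tested in that fit.

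Of 6 cytokines made in response to the family or acting with it, 4 were tested, and each of those rose in both genotypes. Of all tested genes 18.1% rose in WT and 11.6% in CD36 KO. Ifng and Il22 passed the filter on low counts mainly or wholly through oxLDL libraries, as did Csf2, so the count is a description, and a fit of the 2 WT groups alone tested and called 2, Ifng and Il18. The medians were 6.90 in WT and 5.24 in CD36 KO, and 3.85 and 4.54 with genes at 0 counts in control set to their bound. Ifng, the main product of IL-12 action on lymphocytes, had 2 counts in WT control and 814 in WT oxLDL, and 18 and 383 in CD36 KO. Il22 had 0 counts in both control groups, 68 in WT oxLDL and 74 in CD36 KO oxLDL. Il17a and Il17f did not pass the low-count filter: under oxLDL they had 7 and 5 counts in WT and 56 and 35 in CD36 KO, and no more than 1 count in either control group. Il18 rose by 2.87 ± 0.23 in WT and 1.5 ± 0.22 in CD36 KO and was lower in CD36 KO under oxLDL (-0.82 ± 0.21, edgeR adjusted p = 0.018), whereas Csf2 was higher there (1.78 ± 0.40, edgeR adjusted p = 0.013). All 6 were tested when WT oxLDL replicate 1 was left out, and 4 then rose in WT and 6 in CD36 KO. Over all 16636 genes tested in that fit, 4043 rose in WT and 3494 in CD36 KO. The genotype differences under oxLDL were then -0.66 for Il18 (edgeR adjusted p = 0.015) and 2.17 for Csf2 (edgeR adjusted p = 0.0021). Il17f was then also called higher in CD36 KO under oxLDL, by 2.62 (edgeR adjusted p = 0.044). Only CD36 KO oxLDL libraries reached the low-count cutoff for Il17a and Il17f, so calls of these 2 genes are descriptions.

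**Figure D5:**
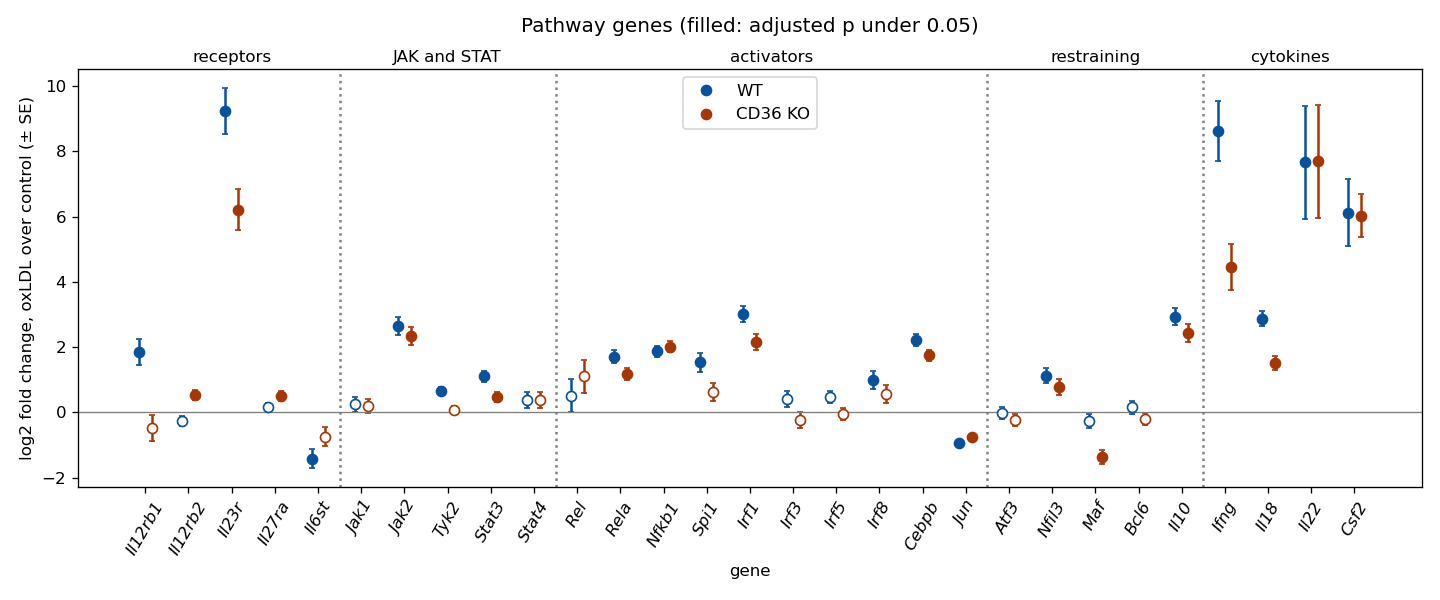
Log2 fold change of oxLDL over control with its standard error for the tested genes of 5 lists around the family, in WT and CD36 KO; filled points passed an edgeR adjusted p of 0.05, and dotted lines part the lists. Il23r, Ifng, Il22 and Csf2 lie highest, and their fitted values rest on control groups with 0 to 18 counts.

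Markers of other cells that could make or answer to these cytokines moved with some groups. The 8 T and NK cell markers, 4 of them tested, summed in WT to 1.70 to 2.34 CPM without and 2.47 to 3.66 with oxLDL, and in the knockout to 1.67 to 1.92 without and 1.56 to 2.40 with it, and none of the 8 was at 0 counts in a whole group. Within that sum Gzmb, which encodes granzyme B, rose under oxLDL by 3.26 in WT and 2.82 in CD36 KO, while Klrb1c, which encodes NK1.1, fell by a log2 change of -2.09 and -2.30. Cd4 fell in WT by a log2 change of -0.84, and Cd3e was at -1.40 ± 0.90 there and did not pass. The 8 dendritic cell markers, 5 of them tested, summed to 3.67 to 4.88, 6.54 to 10.4, 8.39 to 9.11 and 9.81 to 10.7 CPM in the same order, with Xcr1 at 0 in WT control. Of the 5 tested, Ccr7 rose under oxLDL by 2.78 in WT and 1.56 in CD36 KO, and Siglech by 1.73 in WT only. Clec9a fell in CD36 KO by a log2 change of -2.19 and was at -0.81 ± 0.30 in WT, which did not pass. Zbtb46, at -0.01 and -0.05, and Flt3, at 0.85 and 0.64, did not pass in either genotype. The 6 B cell markers, all tested, summed to 3.52 to 4.75 and 2.08 to 7.45 CPM in WT and to 19.6 to 23.0 and 15.9 to 22.9 CPM in CD36 KO. In CD36 KO 6 of them were called higher in control medium and 5 under oxLDL. Of all tested genes 8.78% and 11.7% were higher there. The 5 mast cell markers, 4 of them tested, ranged from 1.33 to 2.99 CPM in WT and from 3.96 to 5.94 CPM in CD36 KO. The 6 neutrophil markers, 2 of them tested, summed to 7.22 to 8.63, 25.8 to 56.9, 5.95 to 6.81 and 13.6 to 23.8 CPM, with Ly6g at 0 in both control groups and Elane at 0 in WT oxLDL. Of the 2 tested, S100a8 rose by 2.35 ± 0.31 in WT and 1.59 ± 0.30 in CD36 KO, while Cxcr2, a neutrophil chemokine receptor gene, fell by a log2 change of -4.32 ± 0.66 and -2.42 ± 0.68. The 3 markers of large peritoneal macrophages, all tested, summed in WT to 13.0 to 19.2 CPM without and 14.7 to 15.9 with oxLDL, and in the knockout to 23.3 to 36.0 and 20.5 to 23.3. Of these, Timd4 rose under oxLDL by 5.03 in WT and 2.59 in CD36 KO, while Gata6 fell by a log2 change of -1.18 and -1.09. Icam2 did not pass in either genotype. In control medium Gata6 was higher in CD36 KO by 1.03 (edgeR adjusted p = 0.018) and Timd4 by 2.97 (edgeR adjusted p = 0.00014). Under oxLDL Gata6 was higher by 1.12 (edgeR adjusted p = 0.0088) and Icam2 lower by a log2 difference of -1.01 (edgeR adjusted p = 0.013). The macrophage genes Adgre1, which encodes F4/80, and Csf1r were lower in CD36 KO by log2 differences of -0.87 and -0.51 in control medium and -0.80 and -0.60 under oxLDL, each of which passed. The part of such cells in the family's values was not tested.

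For the 4 members above 1 CPM in some group, the genes with the most similar pattern over the 12 libraries were found by the root mean square difference of centred log2 CPM, where 0 would be the same profile. Nearest to Il12a were Cxcl2, a neutrophil-attracting chemokine (0.52), and Clec4e, the receptor Mincle (0.58). Nearest to Il12b were Ptgs2, the inducible cyclooxygenase (0.36), and Cxcl2 (0.64). The distance between Il12a and Il12b themselves was 0.80, and 0.53 without WT oxLDL replicate 1. Nearest to Il27 were Slc2a6 (0.26) and Zbp1, a sensor of Z-form nucleic acid (0.27), and nearest to Ebi3 were Scarf1, a scavenger receptor (0.18), and Arl5c (0.19), while Il27 and Ebi3 were 0.98 apart. Genes of larger change have larger distances on this measure, so it ranks genes within a member and does not compare members.

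The genes next to or overlapping each member were read in the same fit. Stat2, 3290 bases from Il23a, rose by 2.27 ± 0.16 in WT and 1.55 ± 0.16 in CD36 KO, and under oxLDL it was at 365 CPM in WT and 249 CPM in CD36 KO. Apobr overlaps Il27 on the opposite strand and did not pass in either genotype, at -0.35 ± 0.13 and -0.34 ± 0.13, although it had 135 to 173 CPM in WT. Gm16712 is annotated antisense to Ebi3 and had 22 to 69 counts per group, and as strand use in counting is not given in the sources used here, reads of the overlapping pairs cannot be told apart. Nupr1, 28308 bases from Il27, rose by 3.20 ± 0.25 and 1.95 ± 0.24, and Yju2, 2077 bases from Ebi3, by 0.77 ± 0.18 and 0.53 ± 0.18. Cln3, on the other side of Il27, and Zfp119b, on the other side of Ebi3, did not pass in either genotype. The neighbour of Il12a, Schip1, did not pass, and the neighbour of Il12b, Ublcp1, rose by 0.41 ± 0.13 and 0.39 ± 0.13.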

How the data were processed

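RNA was measured by sequencing in 12 libraries in 4 groups of 3. The gene counts, RPKM values and gene lengths were deposited by the authors, with genome build mm10 and FastQC per the submitters' processing notes; the sources used here do not give the aligner, the counter or the annotation. Member RPKM values equalled deposited counts over length and summed counts to within 0.098%. The authors' deposited tables of log2 fold changes, p-values, false discovery rates and scores were used only where named.

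Counts of the 16281 genes kept by filterByExpr (minimum count 10, total 15) were fitted with edgeR 4.0.16 (R 4.3.3; TMM, robust quasi-likelihood test, all 12 libraries, 1 mean per group, 8 residual degrees of freedom), with Benjamini-Hochberg adjustment over all genes tested and calls at an adjusted p under 0.05. Alternatives were DESeq2 1.42.0, limma 3.58.1 (voom), RLE and upper-quartile scaling, no filter, only the groups compared, a replicate block, removal of the trend with gene length, and leaving out each library; the Il23a count ratio without WT oxLDL replicate 1 was chosen after seeing the data. Ratios of RPKM had 0.01 added; log2 CPM for likeness had a prior count of 2. Intervals are 95% exact binomial, and the floor is 3 counts. Replicates of every group differed by more than sampling noise, with chi-square of 2.92 or more for each degree of freedom. It was highest, at 444 and 398, for the pairs with WT oxLDL replicate 1. The pairs with CD36 KO oxLDL replicate 3 were at 75.6 and 59.4, against 13.2 for the other pair of that group.

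The members, lists and motifs were chosen with earlier results of these data known. Named were all 5 members, list genes called in a comparison discussed, the 2 tested genes nearest each member with a group mean of at least 1 CPM, and the neighbouring or overlapping genes. Stat4, Rel, Il17a and Il17f are named from the lists without a call in the fit of all 12 libraries. A gene of the JAK and STAT list is not reported here and was left out of that list's counts. Coordinates are from GENCODE M21, which held 98% of the table's gene IDs. Promoters are from RefSeq (GRCm38.p6), matched by symbol for 3 of 5 members.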

Additional observations from a re-analysis of the deposited data

How the results depend on the processing

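Over 20 alternatives, the number of members called under oxLDL was 4 or 5 in WT and 5 in CD36 KO. Between genotypes in control medium it was 1 in place of 0, namely Ebi3, with only the groups compared and with the length trend removed, and 0 to 1 when a library was left out. Between genotypes under oxLDL it was 0 with only the groups compared and 1 to 3 when a library was left out. DESeq2 called 3 there, adding Il12a. Genotype calls under oxLDL ranged from 0 to 4 of 5 receptor, 0 to 4 of 5 JAK and STAT, 0 to 3 of 10 activating and 1 to 4 of 5 restraining genes, and from 1 to 3 of the downstream cytokines tested. The interaction called 0 members in all 19 alternatives. Without WT oxLDL replicate 1 it called 2 receptor genes, the JAK and STAT genes Jak2, Tyk2 and Stat3, and the restraining genes Maf and Bcl6. It also called the cytokine Il18, and 0 of the activating genes. Jak2, Tyk2, Stat3, Maf, Bcl6 and Il18 had negative values there, where 259 of 16636 tested genes were called higher and 899 lower. Leaving out a library gave -0.055 to 0.37 for the Il27 genotype difference in control medium, -0.038 to 1.15 and -0.55 to 0.070 for the interactions of Il12b and Ebi3, and -0.39 to 1.15 and -1.04 to 0.28 for the log2 ratio of Il12b to Il12a in WT control and WT oxLDL, so these signs rest on single libraries. The cause of the other changes was not tested.

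Over the whole table the calls ranged from 3687 to 8097 around 5980 for oxLDL in WT, 3397 to 8315 around 4454 in CD36 KO, 853 to 6684 around 1823 between genotypes in control medium, 1191 to 6205 around 3512 under oxLDL, and 40 to 1158 around 109 for the interaction. Upper-quartile scaling moved the median of all genes to -0.13 and -0.12 for oxLDL in WT and CD36 KO and left 37.1% of the WT calls higher in place of 49.3%, and 71.2% of the genotype calls under oxLDL higher in place of 54.3%. With a replicate block the members called were 4, 5, 0, 2 and 0 in the same order, as without it. The block is no pairing: in 18 pairs of same-numbered libraries the correlation of deviations ran from -0.40 to 0.36, 2 were over 0.1, and a library correlated best with its own number in 10 of 36 checks.

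Depth limits Il23a, with 0 to 6 counts per library outside CD36 KO oxLDL, and the control levels of Il12a and Il12b. The nearest genes changed without WT oxLDL replicate 1: for Ebi3 none of the 2 was shared, and for Il12b and Il27 1 was shared. With a prior count of 0.5, 1 of the 2 for Il12a was shared.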
